A study of Mus musculus with 10 samples.

Results

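Mitochondria import nearly all of their proteins from the cytosol, fold or degrade them inside, fuse and divide, and keep a small genome of their own, and the mouse genes described here carry out that upkeep. The 50 genes were chosen by name, as those rows of the count table whose gene symbol equalled a listed member, and all 50 of 50 were found among the 55492 gene symbols of the table. They fall into 20 genes of protein import, 11 chaperones and proteases, 6 genes of mitochondrial fusion and fission, 3 mitophagy genes, 8 genes that copy or express mitochondrial DNA (mtDNA), and 2 nuclear regulators. All 50 passed the filter on low counts and were among the 21010 genes tested. Their levels were read in 10 RNA-seq libraries of mouse B cells that lacked or kept Pcbp1, a gene for a poly(C)-binding RNA-binding protein.

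The libraries form 4 groups. Induced germinal center B (iGCB) cells, taken after 4 days in the 40-LB culture, in which B cells grow on feeder cells, gave 3 knockout (KO) and 3 wild-type (WT) libraries. Naive splenic B cells at day 0 gave 2 KO and 2 WT libraries. The KO mice carried floxed Pcbp1 alleles (fl/fl) and Mb1-Cre, a Cre inserted at Cd79a that acts across the B lineage from its early stages on. The labels call the control mice WT and do not say whether they carried Cre, nor do they give strain, age or sex, or say which libraries came from separate mice, so the p-values below measure only the spread between these libraries.

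Total counts per library ran between 33400672 and 63576147. Pcbp1 stood at 1.96 to 3.71 CPM (counts scaled to the library total after TMM normalization) in iGCB KO cells against 148 to 327 CPM in iGCB WT cells, and at 0.448 and 4.33 CPM in naive KO cells against 83.9 and 152 CPM in naive WT cells, as the labels state. The 8 B cell markers summed to 4968 to 5351 CPM in iGCB KO, 4293 to 4744 CPM in iGCB WT, 6983 to 7200 CPM in naive KO and 8709 to 9823 CPM in naive WT libraries. Among them Cd79a, where the Cre sits, had 391, 438 and 342 CPM in iGCB KO and 791, 822 and 773 CPM in iGCB WT libraries. In naive cells Cd79a had 432 and 414 CPM in KO and 1387 and 1173 CPM in WT libraries. Lower Cd79a went with KO at both stages, so its part in the KO results cannot be told apart from that of Pcbp1 loss. Markers of other cells differed between groups. The 10 fibroblast (feeder) markers summed to 325 to 376 CPM in iGCB KO and 359 to 452 CPM in iGCB WT libraries, most of it Thy1, against 3.18 to 22.7 CPM in naive KO and 16.9 to 19.7 CPM in naive WT libraries. The 10 myeloid markers summed to 14.2 to 51.5 CPM in iGCB KO and 5.52 to 17.4 CPM in iGCB WT libraries, against 39.6 and 408 CPM in naive KO and 223 and 299 CPM in naive WT libraries. The 10 erythroid and platelet markers summed to 3.16 to 8.74 CPM in iGCB KO, 3.27 to 6.04 CPM in iGCB WT, 33.1 and 224 CPM in naive KO, and 102 and 155 CPM in naive WT libraries. The 8 T cell markers summed to 62.8 to 71.3 CPM in iGCB KO and 20.9 to 28.1 CPM in iGCB WT libraries, nearly all of it Lck, and Cd3e was at most 0.501 CPM in any iGCB library. The part of these other cells in the results below was not tested. Xist and Y-linked genes marked the naive libraries numbered 1, KO and WT, as female, and the other 8 of the 10 libraries, both naive libraries numbered 2 among them, as male.

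Proteins made in the cytosol enter mitochondria through the TOM complex of the outer membrane, and from there the TIM23 complex passes those with a presequence into the matrix, while small TIM chaperones escort membrane proteins through the intermembrane space towards TIM22. Inside, HSP60 and HSP10 fold the imported chains and ATP-dependent proteases such as LONP1 and CLPXP remove damaged ones. Mitofusins and OPA1 join mitochondria, DRP1 divides them, and the mitophagy genes mark whole organelles for removal, a balance that matters in B cells because activated B cells enlarge and remodel their mitochondria.

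In iGCB cells, loss of Pcbp1 was accompanied by a changed transcript level of 1 of the 50 genes, Timm21, which fell. Timm21 encodes a subunit of the TIM23 complex that links the inner-membrane translocase to the TOM complex and, in human cells, hands newly imported subunits to assembling respiratory chain complexes. It had 16.4, 17.9 and 17.2 CPM in iGCB KO libraries, against 31.0, 34.5 and 33.9 CPM in iGCB WT libraries. The 2 groups lay well apart, with little spread within either. Its log2 fold change, KO over WT, was -0.95 ± 0.18 (SE, 3 against 3 libraries), a 0.519-fold level, with a 95% interval of -1.34 to -0.55 and an adjusted p of 0.0281 in edgeR's quasi-likelihood test with Benjamini-Hochberg adjustment over all 21010 genes. Over all genes tested, 0.343% were called higher and 0.923% lower in iGCB KO cells, so that 1 of 50 called lower and 0 of 50 called higher is a count close to this background. The call on Timm21 did not survive the removal of any 1 iGCB library: the adjusted p was 0.147, 0.120 and 0.159 without iGCB KO 1, 2 or 3 and 0.0754, 0.117 and 0.121 without iGCB WT 1, 2 or 3, while the log2 fold change stayed between -0.99 and -0.91. In bulk RNA, fewer cells that express a gene and less of its RNA per cell cannot be told apart.

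No other member passed the threshold between iGCB KO and iGCB WT cells. The median log2 fold change of the 50 genes was -0.02, against 0.00 over all genes tested, with 24 members above 0 and 26 below. Without multiple-testing adjustment, 2 members lay higher at p under 0.05 (background 4.39%) and 1 lower (background 5.37%). The 2 higher were Mff and Bnip3l, neither of which passed after adjustment. The KO and WT libraries did not overlap for 5 members that were higher (background 10.2%), namely Tomm34, Timm8a1, Phb2, Mff and Bnip3l, and for 2 that were lower (background 10.3%), Timm21 and Polg.

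Mff, the outer-membrane receptor that recruits DRP1 to sites of division, had 89.4, 98.9 and 88.6 CPM in iGCB KO libraries, against 73.4, 73.0 and 67.9 CPM in iGCB WT libraries, a log2 fold change of 0.37 ± 0.14 (SE) with an edgeR adjusted p of 0.381. Bnip3l, also called NIX, a mitophagy receptor known for clearing mitochondria from maturing red cells, had 693, 684 and 520 CPM in iGCB KO libraries, against 503, 501 and 331 CPM in iGCB WT libraries. The highest WT library lay just under the lowest KO library, and the log2 fold change was 0.51 ± 0.21 (SE) with an edgeR adjusted p of 0.435. Tomm22, the central receptor of the TOM complex, had 101, 127 and 95.1 CPM in iGCB KO libraries, against 78.4, 82.3 and 95.6 CPM in iGCB WT libraries, and iGCB KO 3 fell within the WT range (log2 fold change 0.33 ± 0.16, SE).

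The next smallest p-values belonged to Tomm34, Polg, Timm17b and Trap1. Tomm34, a cytosolic co-chaperone of preproteins, had 143, 145 and 150 CPM in iGCB KO libraries, against 126, 126 and 113 CPM in iGCB WT libraries. Polg, the catalytic subunit of the mtDNA polymerase, had 72.5, 73.8 and 76.8 CPM in iGCB KO libraries, against 86.5, 88.2 and 85.0 CPM in iGCB WT libraries, although 921 of its exon bases also lie in Fanci, so reads there cannot be assigned to one gene without strand. Their log2 fold changes were 0.26 ± 0.16 and -0.22 ± 0.13 (SE), with edgeR adjusted p of 0.675 and 0.677. Timm17b, a channel subunit of TIM23, had 44.9, 58.1 and 48.7 CPM in iGCB KO libraries, against 34.5, 46.3 and 37.9 CPM in iGCB WT libraries. Trap1, the mitochondrial HSP90, had 77.2, 84.8 and 92.6 CPM in iGCB KO libraries, against 93.1, 88.5 and 131 CPM in iGCB WT libraries. For both genes the ranges of the 2 groups overlapped, and their adjusted p were 0.687 and 0.724 in edgeR's test.

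How large a difference these libraries could have hidden is given by the intervals of the fold changes. Leaving out Tomm6, which was close to 0 counts in iGCB cells, the 95% interval of the iGCB KO effect reached a median of 0.45 to either side on the log2 scale. It lay wholly within -1 and 1 for 44 of 49 members and within -0.5 and 0.5 for 14. Lonp1, the main protease of the matrix, is one of the narrow ones, at -0.01 with an interval of -0.31 to 0.30, and Mfn1, a mitofusin, another, at -0.05 with an interval of -0.34 to 0.25. For most members a change of 1 on the log2 scale was therefore outside the interval, and a change of 0.5 was not.

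In naive B cells no member was called in either direction, where 0.0143% of all genes tested were called higher and 0.0333% lower. No member reached an unadjusted p under 0.05 in edgeR's test either (background 2.83% higher and 2.72% lower), and DESeq2 called 0. Timm21 again had the smallest p, with 9.27 and 8.16 CPM in naive KO libraries against 13.9 and 9.98 CPM in naive WT libraries. These groups lie close together, and the log2 fold change of -0.46 ± 0.22 (SE, 2 against 2 libraries) had an edgeR adjusted p of 0.919. Naive KO and WT libraries did not overlap for 6 members, all lower in KO (Tomm22, Timm21, Clpx, Yme1l1, Dnm1l and Fis1), where the background is 12.7% of genes lower and 11.5% higher. The median log2 fold change of the members was -0.08, against -0.05 over all genes, and scaling by library size alone moved the median of all genes to 0.07.

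Among the members next in order in naive cells, Nrf1, a transcription factor for nuclear genes of mitochondria, had 46.6 and 70.0 CPM in naive KO libraries against 65.2 and 87.0 CPM in naive WT libraries. Tomm34 had 131 and 105 CPM in naive KO libraries against 110 and 77.1 CPM in naive WT libraries, and Timm23, the channel-forming subunit that names the TIM23 complex, had 17.9 and 24.0 CPM against 23.4 and 32.7 CPM. In each of these 3 genes the ranges of the 2 groups overlapped, and the adjusted p was 1 in edgeR's test. Between libraries of one number, and so of one sex, KO lay below WT in both pairs for Nrf1 and Timm23 and above it in both for Tomm34. With the number within a stage as a block, no member was called in naive cells, and the edgeR adjusted p was 0.541 for Nrf1, 0.567 for Tomm34, 0.667 for Timm23 and 0.579 for Timm21. The difference between the KO effect in iGCB cells and that in naive cells was called for 0 of 50 members, with a background of 0.0143% higher and 0.019% lower. Tomm22 alone had an unadjusted p under 0.05 for that difference (background 2.85% higher and 3.21% lower), at 0.63 ± 0.25 (SE) on the log2 scale with an edgeR adjusted p of 0.732. For Timm21 the difference was -0.49 ± 0.28 (SE, adjusted p 0.909 in edgeR's test), so its effect was not shown to differ between the stages.

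**Figure D1:**
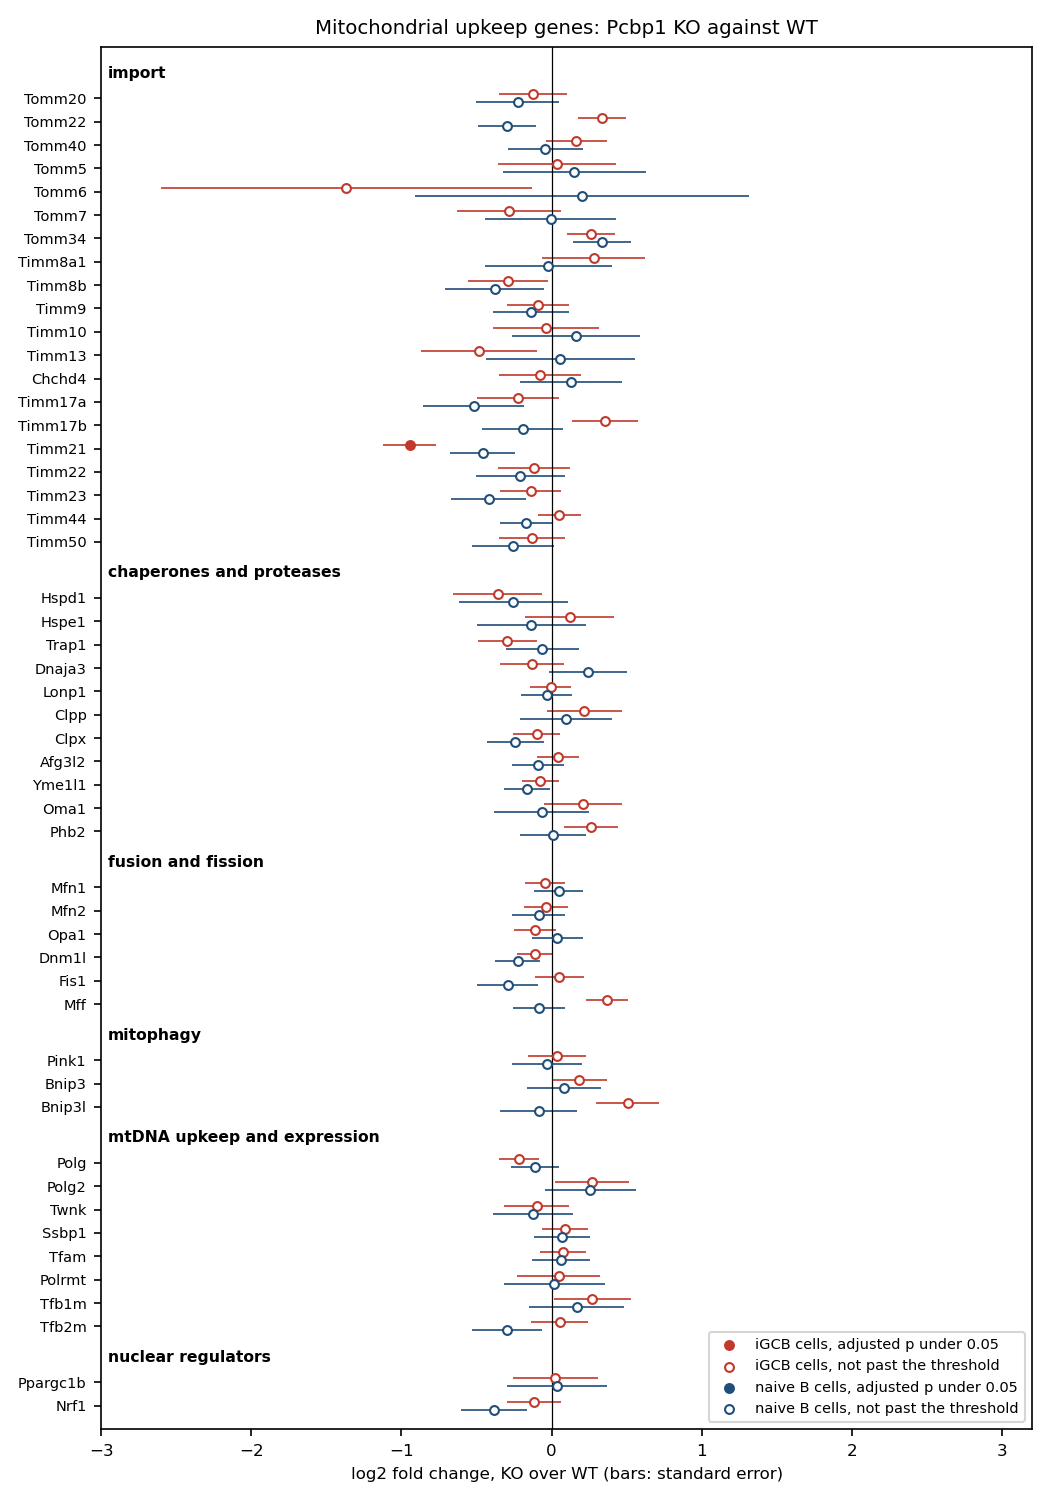
Log2 fold change of each of the 50 genes, KO over WT, on the horizontal axis, with 1 row per gene grouped by role. Red points are iGCB cells and blue points naive B cells, bars are standard errors, and filled points have an adjusted p under 0.05; Timm21 in iGCB cells, at -0.95, is the only filled point.

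Far more of these genes differed between the stages than between KO and WT. Stage cannot be told apart here from culture on feeder cells, and both female libraries were naive. The part of other cell types was not tested. Against naive B cells, 24 members were higher and 5 lower in iGCB cells of KO mice, and 21 were higher and 8 lower in iGCB cells of WT mice, by edgeR's quasi-likelihood test at an adjusted p under 0.05. Over all genes tested, 24.8% were called higher and 31.4% lower in KO and 24.7% higher and 31.7% lower in WT. The members lay on the higher side more often than this background in both genotypes. That describes a list chosen with earlier results of these data known. The counts by class below stand against the same background. Their median log2 fold change was 0.51 in KO and 0.42 in WT, where that of all genes was -0.26 and -0.25. iGCB and naive libraries did not overlap for 33 members that were higher and 10 that were lower in KO (background 34.2% and 41.3%), and for 28 and 10 in WT (background 32.2% and 40.2%). The counts of lower members moved when 1 library was left out: 3 members were called lower in KO without iGCB KO 3, and 5 in WT without iGCB WT 2. Leaving out a naive library left a group of 1 library. Without a naive library numbered 2, the library left was female, while all iGCB libraries were male. A call lost in such a fit, here and below, cannot be read like a call lost without an iGCB library.

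All 21 members called higher in WT were also called higher in KO, where they made up 87.5% of the calls, and the 5 called lower in KO were 62.5% of those called lower in WT. Among all genes the calls shared by both genotypes were 83.3% of the KO and 83.7% of the WT genes that were higher, and 84.8% and 84.1% of those that were lower. Hspe1, Afg3l2 and Mff were called higher in KO alone and Dnm1l, Tfb2m and Nrf1 lower in WT alone. For none of these 6 genes did the test of the difference between the KO effects pass, with adjusted p between 0.871 and 1, so the genotypes were not shown to differ there.

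**Figure D2:**
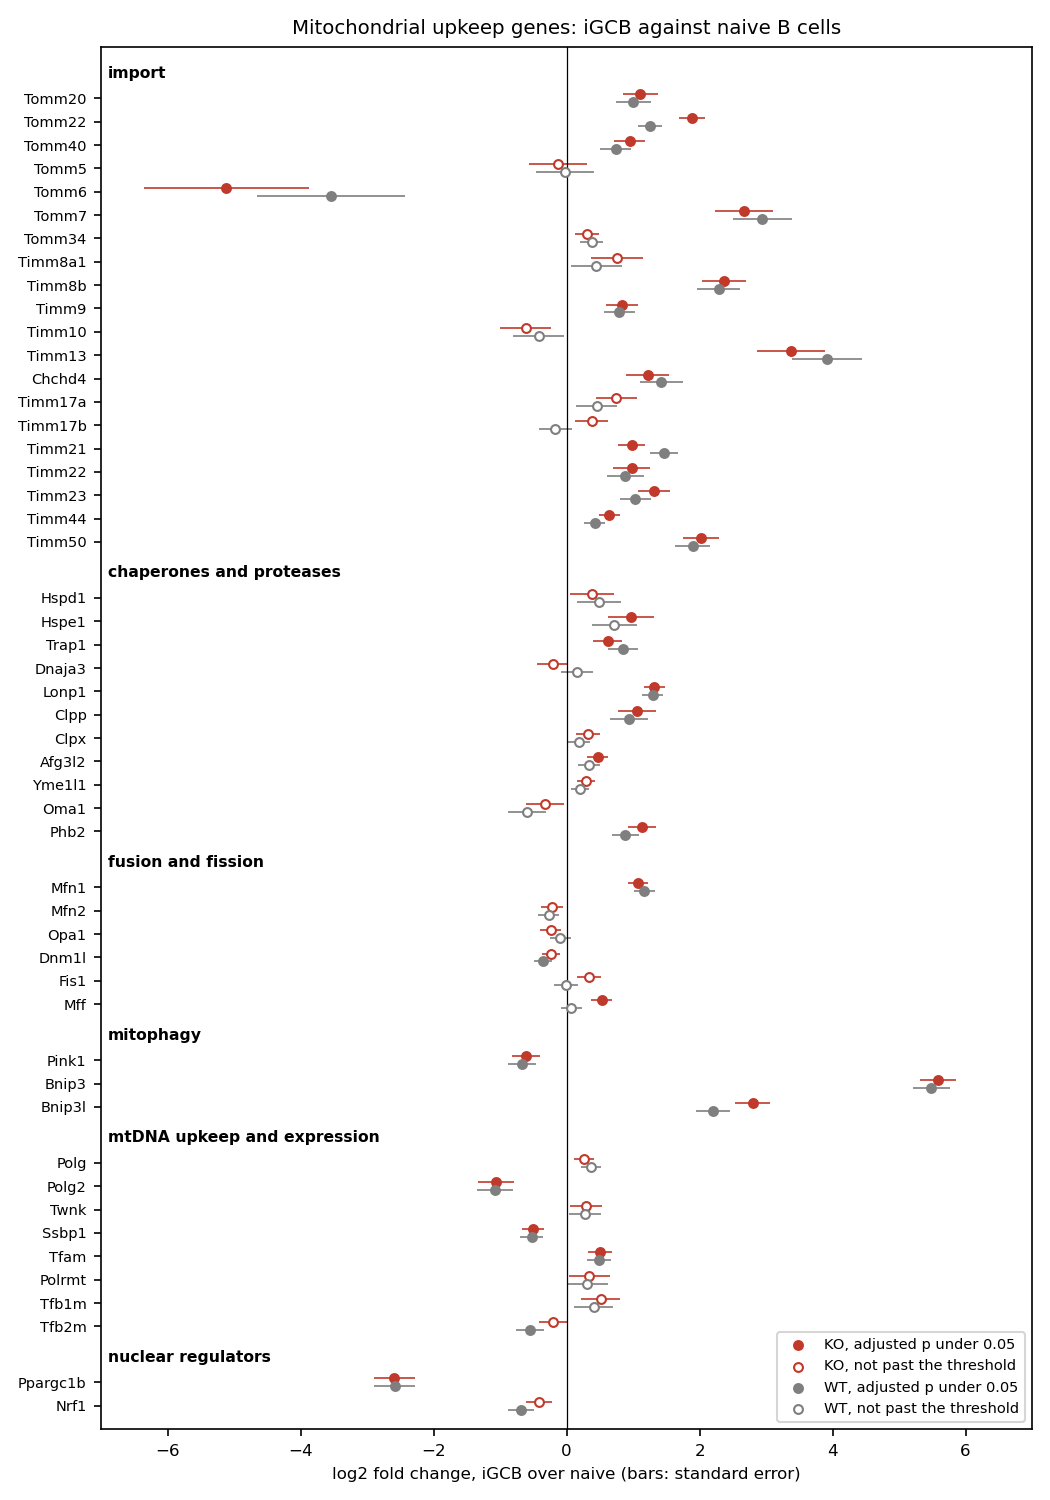
Log2 fold change of each of the 50 genes, iGCB over naive, on the horizontal axis, with 1 row per gene grouped by role. Red points are KO and grey points WT cells, bars are standard errors, and filled points have an adjusted p under 0.05; most import genes lie right of 0, Bnip3 lies farthest right at 5.59 in KO and 5.49 in WT, and Ppargc1b lies left at -2.59 and -2.58.

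Import genes were most of the members that rose. In both genotypes 13 of the 20 were called higher and 1 lower, with a median log2 fold change of 0.96 in KO and 0.84 in WT. Timm13, a small TIM chaperone of the intermembrane space, had the largest fold among the import genes that rose: it had 25.5, 41.2 and 24.3 CPM in iGCB KO against 3.76 and 2.06 CPM in naive KO libraries. Timm13 had 27.2, 32.6 and 67.5 CPM in iGCB WT against 3.71 and 1.87 CPM in naive WT libraries. Every iGCB library lay above every naive one, although iGCB WT 3 was about as far from the other WT libraries as they were from 0. The fold was 10.4 in KO (log2 3.37 ± 0.51, SE, adjusted p 0.00029 in edgeR's test) and 15.1 in WT (log2 3.92 ± 0.52, adjusted p 0.000127).

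Tomm7, a small subunit of the TOM complex that in human cells also helps hold PINK1 at the outer membrane, had 41.0, 56.2 and 37.6 CPM in iGCB KO against 8.08 and 6.05 CPM in naive KO libraries. Tomm7 had 31.1, 43.3 and 89.7 CPM in iGCB WT against 8.59 and 5.57 CPM in naive WT libraries. Timm8b, another small TIM chaperone, had 26.9, 33.2 and 25.0 CPM in iGCB KO against 6.47 and 4.48 CPM in naive KO libraries. Timm8b had 29.9, 27.0 and 47.4 CPM in iGCB WT against 8.73 and 5.496 CPM in naive WT libraries. Both kept iGCB and naive libraries fully apart, at 6.35-fold in KO and 7.70-fold in WT for Tomm7 and at 5.17-fold and 4.87-fold for Timm8b (edgeR adjusted p between 0.00017 and 0.000508). The small TIM Timm10 did not join them, with log2 fold changes of -0.62 in KO and -0.42 in WT (adjusted p 0.189 and 0.369, edgeR).

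Among the TOM receptors, Tomm22 stood at 32.1 and 26.2 CPM in naive KO and at 37.4 and 34.3 CPM in naive WT libraries, under its iGCB levels given above, with log2 fold changes of 1.89 ± 0.19 in KO and 1.25 ± 0.19 (SE) in WT (edgeR adjusted p 2.21e-05 and 0.000257). Timm21, the gene that fell in iGCB KO cells, was still higher in iGCB than in naive cells of both genotypes, 1.97-fold in KO and 2.76-fold in WT (edgeR adjusted p 0.00222 and 0.000189). Timm50, the presequence receptor of TIM23, was higher by 2.02 ± 0.27 in KO and 1.90 ± 0.27 (SE, log2) in WT, and Timm23 by 1.31 ± 0.24 and 1.03 ± 0.24, all past the threshold. The other import genes called higher in both genotypes were Tomm20, Tomm40, Timm9, Chchd4, Timm22 and Timm44, with log2 fold changes between 0.42 and 1.42. Tomm5, Tomm34, Timm8a1, Timm17a, Timm17b and Timm10 were called in neither.

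Several of the smaller changes among import genes lay close enough to the threshold that the call was lost in some fits with 1 library fewer. The direction was kept in each. The fits without a naive library rest on a naive group of 1 library. In WT, the call on Timm44 was lost without any of iGCB WT 1, 2 or 3 or naive WT 2 (adjusted p 0.0534, 0.07, 0.105 and 0.286), and those on Tomm40 and Timm22 without iGCB WT 3 (0.0543 and 0.0666) or naive WT 2 (0.172 and 0.103). The WT calls on Timm9 without iGCB WT 3 or naive WT 1 (0.0546 and 0.0724), and on Tomm20 without naive WT 1 (0.054), were lost too. In KO, the calls on Chchd4 and Timm9 were lost without naive KO 1 (0.0533 and 0.0773), and those on Tomm40 and Timm22 without naive KO 2 (0.0585 and 0.0707).

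Tomm6, a small TOM subunit, was the 1 import gene called lower, and its value is uncertain. It had 2, 1 and 0 counts in iGCB KO against 51 and 63 in naive KO libraries, and 4, 0 and 5 counts in iGCB WT against 38 and 52 in naive WT libraries. Of its 1131 exon bases, 859 also belong to Gm21981 on the same strand, and no source used here says how reads that fit both genes were counted. The fitted log2 fold changes, -5.12 in KO and -3.55 in WT, depend on the prior count, and the WT call was lost without naive WT 2 (edgeR adjusted p 0.0904).

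Promoters of the members were read from RefSeq (build GRCm38.p6), as windows from 250 bases before to 50 bases after each start, and 45 of the 50 genes had an entry. CCGGAAG, a site form of ETS-family factors such as GABP, was the most frequent of the motifs searched: on either strand it stood in 20 of 45 member genes, 44.4%, against 17.7% of 12275 genes tested that had a window and 9.93% of all 27025 genes with one. It was held by 7 of the 18 members called higher in WT iGCB cells, by 3 of the 7 called lower and by 10 of the 20 not past the threshold. On the gene's strand alone these were 7 of 18, 1 of 7 and 7 of 20. With so few genes, whether its presence goes with direction was not shown. GCATGCGC, a short form of the NRF1 site, stood in 11.1% of members and 5.27% of genes tested. The longer, palindromic NRF1 site, which contains it, stood in 2.22% and 2.03%. AAGATGGCG (YY1) stood in 2.22% and 3.06%, and CACGTG (the E-box bound by Myc) in 15.6% and 10.9%. By direction, CACGTG was held by 4 of the 18 members called higher, 0 of the 7 called lower and 3 of the 20 not past the threshold. These splits were not tested. A match describes letters in these windows and shows no binding.

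The upstream bases of Timm13 and Timm8b are shown because these genes, whose products work as small TIM chaperones, rose together and yet carry different matches. The lines give 250 bases upstream of each start, 5′ to 3′ on the gene's strand, Timm13 from chr10:80900970-80901219 (minus strand) and Timm8b from chr9:50603651-50603900 (plus strand). Capitals mark GCATGCGC in Timm13, whose first base lies at -192 from the start, and CCGGAAG in Timm8b, at -12.
Timm13: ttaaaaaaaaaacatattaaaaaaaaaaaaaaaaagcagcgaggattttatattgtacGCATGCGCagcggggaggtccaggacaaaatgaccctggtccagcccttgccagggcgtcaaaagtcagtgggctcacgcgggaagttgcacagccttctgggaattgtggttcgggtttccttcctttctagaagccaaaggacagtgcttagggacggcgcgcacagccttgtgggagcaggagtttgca
Timm8b: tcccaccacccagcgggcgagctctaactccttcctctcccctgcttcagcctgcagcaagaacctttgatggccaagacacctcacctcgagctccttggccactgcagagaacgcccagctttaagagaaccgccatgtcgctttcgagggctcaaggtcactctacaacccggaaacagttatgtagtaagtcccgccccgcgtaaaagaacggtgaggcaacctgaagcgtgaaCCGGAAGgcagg

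The chaperones and proteases moved less. Of 11 genes, 6 were called higher in KO and 4 in WT and 0 lower, with median log2 fold changes of 0.47 and 0.49. Lonp1 had 157, 167 and 128 CPM in iGCB KO against 61.3 and 59.5 CPM in naive KO libraries. Lonp1 had 151, 153 and 151 CPM in iGCB WT against 57.5 and 66.2 CPM in naive WT libraries. Its libraries were close together within each group, and the log2 fold changes were 1.32 ± 0.16 and 1.29 ± 0.16 (SE, edgeR adjusted p 7.46e-05 and 7.92e-05). Phb2, a prohibitin of the inner membrane that also serves as a mitophagy receptor, had 150, 174 and 156 CPM in iGCB KO against 80.6 and 65.4 CPM in naive KO libraries. Phb2 had 123, 136 and 142 CPM in iGCB WT against 89.1 and 56.0 CPM in naive WT libraries. Its log2 fold changes were 1.13 ± 0.21 and 0.88 ± 0.21 (SE, edgeR adjusted p 0.001 and 0.00416).

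Clpp, the protease subunit of CLPXP, had 22.7, 26.0 and 24.1 CPM in iGCB KO against 12.7 and 10.5 CPM in naive KO libraries. Clpp had 20.3, 19.0 and 23.2 CPM in iGCB WT against 14.6 and 7.03 CPM in naive WT libraries. Both fold changes passed the threshold (log2 1.06 and 0.94, edgeR adjusted p 0.00918 and 0.0164), while its ATPase partner Clpx, at log2 0.32 and 0.18, passed in neither genotype. Without naive KO 2 or naive WT 2 the adjusted p of Clpp was 0.0645 and 0.11. Trap1 was called in both genotypes (log2 0.62 and 0.85, adjusted p 0.036 and 0.00852), but in KO the call was lost without iGCB KO 2, iGCB KO 3 or naive KO 2 (0.0729, 0.0968 and 0.213), and in WT without naive WT 2 (0.0755).

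The matrix folding pair did not pass together. Hspe1, which encodes HSP10, had log2 fold changes of 0.97 ± 0.34 in KO and 0.71 ± 0.34 (SE) in WT, of which only the first passed (edgeR adjusted p 0.0314 and 0.0913), and it was lost without iGCB KO 2, iGCB KO 3 or naive KO 2 (0.0876, 0.0598 and 0.204). Hspd1, which encodes HSP60, had 0.38 ± 0.33 and 0.49 ± 0.34 (adjusted p 0.341 and 0.232). In WT iGCB cells Hspd1 had 178, 208 and 380 CPM and Hspe1 114, 117 and 230 CPM, so the third library stood well above the other 2 for both. Their values are also uncertain because the annotation holds 5 processed pseudogenes of Hspd1 and 6 of Hspe1. Afg3l2, a subunit of the m-AAA protease, passed in KO alone (0.47, adjusted p 0.028) and was lost without iGCB KO 1, iGCB KO 3, naive KO 1 or naive KO 2 (0.0611, 0.0677, 0.176 and 0.0525). Yme1l1, Oma1 and the co-chaperone Dnaja3 passed in neither.

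Among the genes of fusion and fission the mitofusins parted. Mfn1 had 52.0, 50.0 and 45.8 CPM in iGCB KO against 22.8 and 24.0 CPM in naive KO libraries. Mfn1 had 47.5, 53.3 and 51.8 CPM in iGCB WT against 23.0 and 22.3 CPM in naive WT libraries. Mfn1 was 2.10-fold higher in KO and 2.25-fold in WT (edgeR adjusted p 0.000221 and 0.000125). Mfn2 had 47.5, 49.3 and 56.0 CPM in iGCB KO against 62.9 and 55.6 CPM in naive KO libraries. Mfn2 had 46.4, 52.6 and 57.8 CPM in iGCB WT against 65.6 and 60.2 CPM in naive WT libraries. Mfn2 passed in neither genotype (log2 -0.22 and -0.27, edgeR adjusted p 0.257 and 0.171). Opa1, the inner-membrane fusion GTPase, likewise passed in neither, at -0.24 and -0.09.

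Dnm1l, which encodes DRP1, had 81.7, 80.0 and 91.6 CPM in iGCB KO against 101 and 98.1 CPM in naive KO libraries. Dnm1l had 88.1, 96.9 and 88.7 CPM in iGCB WT against 116 and 116 CPM in naive WT libraries. iGCB libraries lay below naive ones in both genotypes, and the fold change passed in WT alone, at -0.35 ± 0.14 (SE, edgeR adjusted p 0.0463), a call lost without any 1 of the 5 WT libraries (adjusted p 0.112, 0.0608 and 0.0918 without iGCB WT 1, 2 and 3, 0.102 and 0.112 without naive WT 1 and 2). Mff passed in KO alone (0.53 ± 0.16, adjusted p 0.0162, and 0.104 without naive KO 1), and Fis1, another outer-membrane protein linked to division, in neither.

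The upstream bases of Mfn1 (250 bases, chr3:32529232-32529481, plus strand, GRCm38.p6, 5′ to 3′) are shown because it was the 1 fusion gene that rose. CCGGAAG is in capitals, with its first base at -44 from the start, and among the other 5 genes of the class Dnm1l and Fis1 also held CCGGAAG, while Mfn2, Opa1 and Mff did not.
Mfn1: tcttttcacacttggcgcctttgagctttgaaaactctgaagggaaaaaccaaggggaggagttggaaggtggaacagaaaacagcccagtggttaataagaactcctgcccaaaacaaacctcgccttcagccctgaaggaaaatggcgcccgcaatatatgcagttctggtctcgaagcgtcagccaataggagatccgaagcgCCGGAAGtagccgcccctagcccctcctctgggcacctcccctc

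Mitophagy genes held the member with the largest fold change in both genotypes. Bnip3, an outer-membrane mitophagy receptor and a well-known target of the hypoxia-inducible factor HIF-1, had 135, 149 and 112 CPM in iGCB KO against 2.70 and 2.78 CPM in naive KO libraries. Bnip3 had 117, 141 and 90.6 CPM in iGCB WT against 2.90 and 2.24 CPM in naive WT libraries. The gap between stages was far wider than the spread within any group, at 48.1-fold in KO (log2 5.59 ± 0.27, SE, edgeR adjusted p 3.38e-07) and 44.9-fold in WT (log2 5.49 ± 0.27, adjusted p 2.91e-07). Its paralog Bnip3l stood at 105 and 77.2 CPM in naive KO and 108 and 85.4 CPM in naive WT libraries, and was 6.95-fold and 4.61-fold higher in iGCB cells (edgeR adjusted p 1.36e-05 and 4.76e-05). The annotation also holds a transcribed processed pseudogene, Bnip3l-ps, so reads of Bnip3l may be shared with it. For Bnip3 the KO effect in iGCB cells was 0.18 ± 0.18 (SE, adjusted p 0.845 in edgeR's test), with overlapping libraries. Gm45507, which shares 504 exon bases with Bnip3, had 0 counts in all 10 libraries.

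Pink1, the kinase that accumulates on damaged mitochondria, went the other way. It had 57.6, 44.0 and 37.8 CPM in iGCB KO against 71.9 and 70.1 CPM in naive KO libraries. Pink1 had 53.9, 44.9 and 37.3 CPM in iGCB WT against 79.6 and 65.2 CPM in naive WT libraries. It was lower in iGCB cells, with log2 fold changes of -0.61 ± 0.21 in KO and -0.67 ± 0.21 (SE) in WT (edgeR adjusted p 0.0298 and 0.0192). The KO call was lost without iGCB KO 2 or 3 or naive KO 1 or 2 (adjusted p 0.0851, 0.102, 0.105 and 0.0895), and the WT call without iGCB WT 3 or naive WT 1 (0.0623 and 0.106).

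The upstream bases of Bnip3 (250 bases, chr7:138909507-138909756, minus strand, GRCm38.p6, 5′ to 3′) are shown because no other member changed as much. CACGTG is in capitals, with its first base at -108 from the start. It contains ACGTG, the core of the hypoxia response element, which was searched for after the values of Bnip3 were seen, and which stood in 31.1% of member windows, 27.8% of those of genes tested and 21.8% of all.
Bnip3: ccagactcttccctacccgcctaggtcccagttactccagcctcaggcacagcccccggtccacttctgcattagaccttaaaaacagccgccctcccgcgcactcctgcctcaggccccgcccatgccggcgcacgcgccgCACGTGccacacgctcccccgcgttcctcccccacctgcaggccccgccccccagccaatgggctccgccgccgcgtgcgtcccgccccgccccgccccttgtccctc

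**Figure D3:**
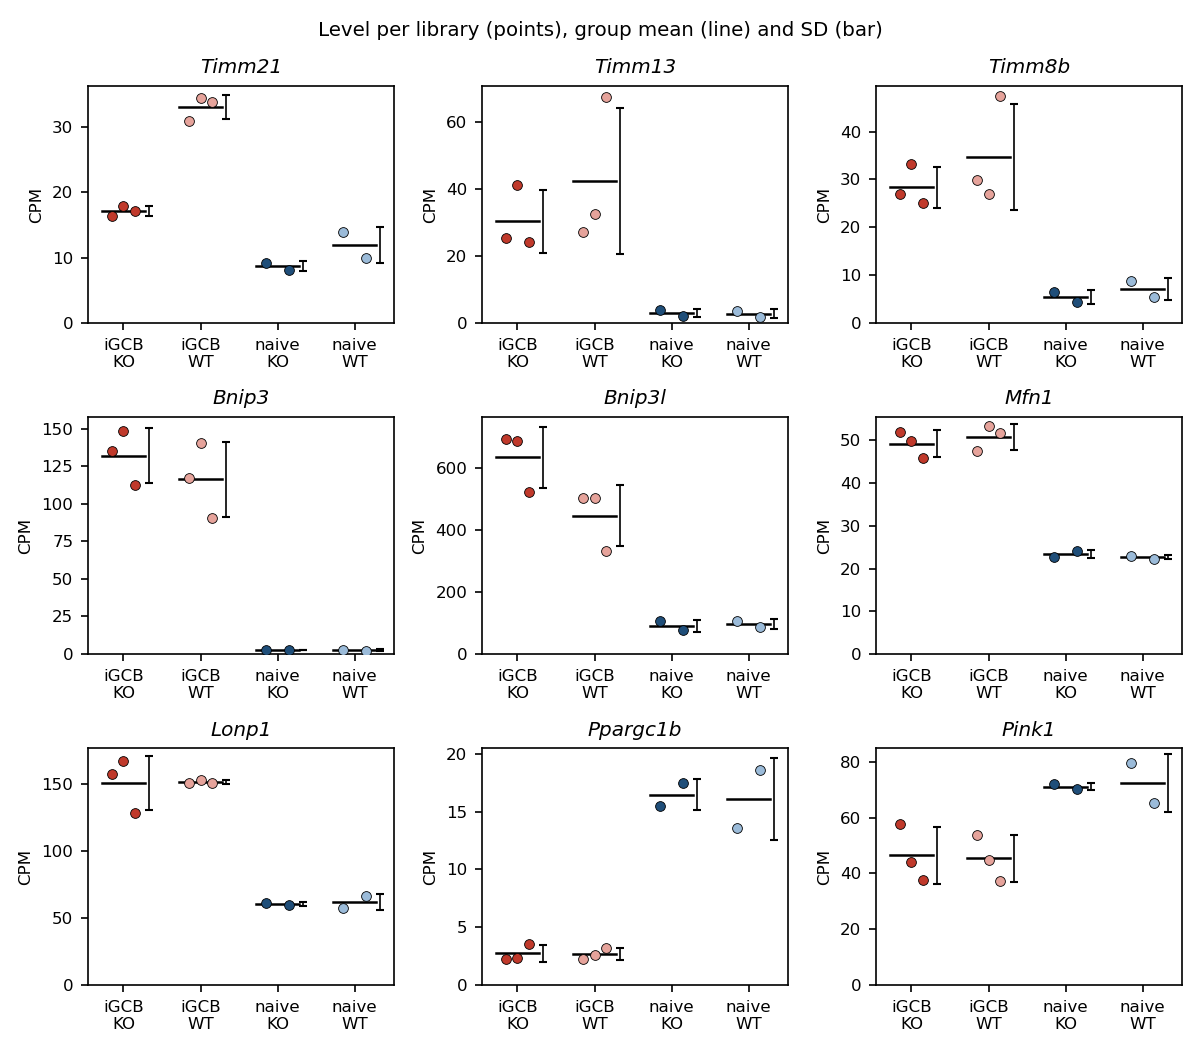
CPM of 9 of the genes in each library, with 1 panel per gene and a linear vertical axis from 0. Points are libraries, lines are group means and bars are SD. In Timm21 iGCB KO (16.4 to 17.9 CPM) lies well below iGCB WT (31.0 to 34.5 CPM), and in Bnip3l all iGCB KO points lie above the iGCB WT points, by a narrow gap. In Ppargc1b and Pink1 the naive groups lie above the iGCB groups.

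The mtDNA genes did not move as a group. Of 8, 1 was called higher in each genotype, and 2 lower in KO and 3 in WT, with median log2 fold changes of 0.28 and 0.29. Polg2, the accessory subunit of the mtDNA polymerase, had 7.98, 7.17 and 9.88 CPM in iGCB KO against 13.2 and 21.8 CPM in naive KO libraries. Polg2 had 6.16, 7.83 and 6.78 CPM in iGCB WT against 13.6 and 15.6 CPM in naive WT libraries. It was lower in iGCB cells, with log2 fold changes of -1.06 ± 0.27 and -1.08 ± 0.27 (SE, edgeR adjusted p 0.00695 and 0.00664, the first 0.117 without naive KO 2). Ssbp1, the mitochondrial single-stranded DNA binding protein, had 46.2, 52.9 and 44.7 CPM in iGCB KO against 63.1 and 73.1 CPM in naive KO libraries. Ssbp1 had 45.2, 39.8 and 50.3 CPM in iGCB WT against 59.0 and 70.9 CPM in naive WT libraries. Its log2 fold changes were -0.51 and -0.53 (edgeR adjusted p 0.0252 and 0.0209). In both genes all iGCB libraries lay below all naive ones. However, 132 exon bases of Polg2 also lie in Milr1 on the other strand, so reads there cannot be assigned to 1 gene without strand. Milr1 had 367 to 507 counts in iGCB and 560 to 1308 counts in naive libraries, and its part in the Polg2 values was not tested. The KO call on Ssbp1 was lost without iGCB KO 1, iGCB KO 3 or naive KO 2 (adjusted p 0.0723, 0.0786 and 0.183), and the WT call without iGCB WT 2 or naive WT 2 (0.0733 and 0.137).

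Tfam, which packs mtDNA and starts its transcription, had 67.8, 77.4 and 65.5 CPM in iGCB KO against 55.5 and 43.6 CPM in naive KO libraries. Tfam had 65.4, 63.99 and 70.4 CPM in iGCB WT against 53.4 and 41.4 CPM in naive WT libraries. It was the gene of this class called higher, by 0.50 and 0.49 on the log2 scale (edgeR adjusted p 0.0311 and 0.0345). The KO call was lost without iGCB KO 1 or 2 or naive KO 2 (adjusted p 0.0559, 0.0885 and 0.251), and the WT call without iGCB WT 1, 2 or 3 or naive WT 2 (0.0625, 0.0574, 0.0779 and 0.238). Tfb2m, the initiation factor of the mitochondrial RNA polymerase, had 24.0, 23.1 and 23.6 CPM in iGCB KO against 31.4 and 22.7 CPM in naive KO libraries. Tfb2m had 27.8, 19.8 and 20.5 CPM in iGCB WT against 30.4 and 36.1 CPM in naive WT libraries. It was called lower in WT alone (-0.55, edgeR adjusted p 0.0434), a call lost without iGCB WT 2, iGCB WT 3 or naive WT 2 (0.129, 0.112 and 0.197). Polg, Twnk (the mtDNA helicase), Polrmt (the mitochondrial RNA polymerase) and Tfb1m (a ribosomal RNA methyltransferase) passed in neither genotype.

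The upstream bases of Polg2 (250 bases, chr11:106779538-106779787, minus strand) and Ssbp1 (250 bases, chr6:40471218-40471467, plus strand), both GRCm38.p6 and 5′ to 3′, are shown because these genes fell and yet hold the motif that Timm8b and Mfn1, which rose, hold as well. Capitals mark CCGGAAG in Ssbp1, first base at -47, and its reverse complement CTTCCGG in Polg2, first base at -29. Positions are counted from the RefSeq start. In the annotation used for exon lengths Ssbp1 begins at chr6:40471352, within the printed window, so by that source its motif lies inside the gene.
Polg2: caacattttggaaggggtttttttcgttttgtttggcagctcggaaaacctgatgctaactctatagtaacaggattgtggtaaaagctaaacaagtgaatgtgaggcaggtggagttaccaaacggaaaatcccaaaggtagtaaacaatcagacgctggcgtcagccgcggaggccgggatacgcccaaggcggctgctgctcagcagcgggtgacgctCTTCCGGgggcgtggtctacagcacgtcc
Ssbp1: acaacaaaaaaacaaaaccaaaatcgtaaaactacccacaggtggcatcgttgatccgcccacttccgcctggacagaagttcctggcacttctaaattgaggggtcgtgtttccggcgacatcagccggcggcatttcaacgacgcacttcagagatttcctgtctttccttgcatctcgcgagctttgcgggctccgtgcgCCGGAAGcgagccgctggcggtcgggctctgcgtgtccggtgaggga

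Of the nuclear regulators, Ppargc1b was lower in iGCB cells of both genotypes and Nrf1 in those of WT. Ppargc1b, which encodes PGC-1β, a coactivator of mitochondrial biogenesis, had 2.28, 2.33 and 3.59 CPM in iGCB KO against 15.5 and 17.4 CPM in naive KO libraries. Ppargc1b had 2.22, 2.62 and 3.21 CPM in iGCB WT against 13.6 and 18.6 CPM in naive WT libraries. The groups stood far apart, and naive cells were 6.02-fold higher in KO and 5.99-fold higher in WT (log2 iGCB over naive -2.59 ± 0.31 and -2.58 ± 0.31, SE, edgeR adjusted p 6.67e-05 and 6.3e-05). Nrf1 had 44.6, 43.4 and 43.0 CPM in iGCB KO and 44.0, 45.3 and 53.0 CPM in iGCB WT libraries, below its naive levels given above, and passed in WT alone (-0.68 ± 0.20, SE, edgeR adjusted p 0.0136, and 0.12 without naive WT 2), with -0.42 ± 0.20 in KO (adjusted p 0.0951).

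Compared per length, as CPM per kilobase of exon (RPKM, a level), Bnip3l ranked first of the 50 genes in iGCB cells, at 164 ± 25.2 in KO and 115 ± 25.7 in WT (SD, n = 3 each), and seventh in naive cells, at 23.6 ± 5.06 and 25.0 ± 4.12 (SD, n = 2 each). Hspe1 and Hspd1 came next in iGCB cells, and they led the naive cells, at 57.8 and 57.8 in KO and 63.5 and 69.1 in WT. Within their SD the order of Bnip3l, Hspe1 and Hspd1 in iGCB WT cells (115, 104 and 96.7) cannot be told apart. Bnip3 had rank 5 in iGCB KO and 6 in iGCB WT, at 58.3 ± 8.06 and 51.3 ± 11.1, and rank 49 of 50 in naive KO and naive WT, at 1.21 ± 0.02 and 1.14 ± 0.21. Timm13 had rank 17 in iGCB KO and 15 in iGCB WT and 46 in both naive groups. Timm21 had rank 41 in iGCB KO and 31 in iGCB WT, at 4.62 ± 0.21 and 8.89 ± 0.50.

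The 6 iGCB libraries did not share these genes evenly. iGCB WT 3 was the highest of the 6 for 22 of 50 members, 44%, against 19% of all genes tested, and for 14 of the 20 import genes, while iGCB WT 1 was the lowest for 22 members, against 14.6% of all genes tested. The import genes summed to 848, 1016 and 867 CPM in iGCB KO and 769, 849 and 1134 CPM in iGCB WT, and to 518 and 435 CPM in naive KO and 536 and 465 CPM in naive WT libraries. The mitophagy genes ran against that order within iGCB WT, with 886, 877 and 670 CPM in iGCB KO and 675, 687 and 459 CPM in iGCB WT, and 179 and 150 CPM in naive KO and 190 and 153 CPM in naive WT libraries. The gap between iGCB WT libraries in the import sum was wider than that between the KO and WT groups. The share of all counts on the mitochondrial genome itself was 4.33%, 4.14% and 4.82% in iGCB KO and 4.40%, 3.86% and 2.71% in iGCB WT, lowest in iGCB WT 3, and 3.19% and 2.98% in naive KO and 2.84% and 3.43% in naive WT libraries.

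**Figure D4:**
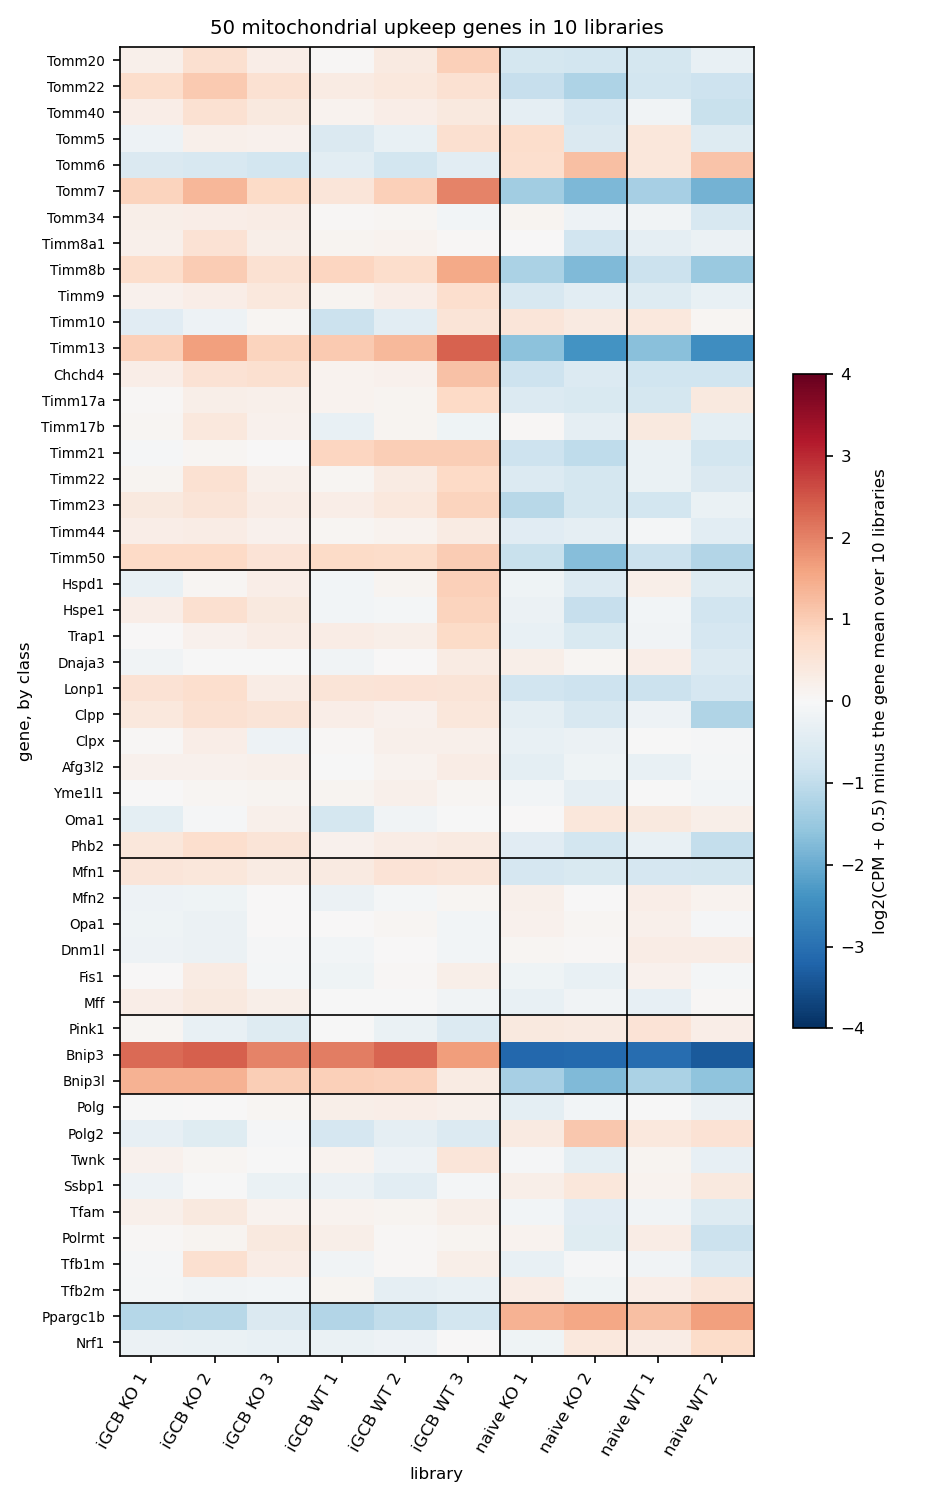
Level of each of the 50 genes (rows, by role) in each of the 10 libraries (columns) as log2(CPM + 0.5) minus the gene's mean over the libraries, red above and blue below that mean, with colours ending at -4 and 4. Columns split by stage in Bnip3, Bnip3l, Timm13, Tomm7 and Ppargc1b, Timm21 splits iGCB KO from iGCB WT, and iGCB WT 3 is the darkest red column for many import genes.

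Other genes of the same pathways, 161 listed and 146 tested, were counted by the same classes. Between KO and WT, 0 of 146 were called at either stage by edgeR's test, and the nearest in iGCB cells was Nipsnap1, a matrix protein that recruits mitophagy adaptors when mitochondria are damaged, with 13.5 ± 1.21 CPM in iGCB KO and 24.6 ± 3.90 CPM in iGCB WT (SD, n = 3 each, log2 fold change -0.86 ± 0.19 SE, adjusted p 0.0539). Between stages, 46 were called higher and 28 lower in KO (background 24.8% and 31.4%), and 44 and 30 in WT (background 24.7% and 31.7%). Import again stood on the higher side, with 10 higher and 1 lower of 26 in KO and 11 and 1 in WT, led by Romo1 (log2 2.5 and 2.37) and Pam16, a component of the presequence motor (1.76 and 1.86). The other chaperones and proteases had 6 higher and 3 lower of 15 in KO and 8 and 4 in WT, with Htra2, an intermembrane-space protease, at 2.28 and 2.70 and Spata5 at -1.92 and -2.29.

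The background of the counts that follow is again 24.8% higher and 31.4% lower in KO and 24.7% and 31.7% in WT. Among 28 other fusion and fission genes, 11 were higher and 5 lower in KO and 10 and 6 in WT, with Inf2, a formin that takes part in division, at log2 2.37 and 2.98 and Trak1, an adaptor for mitochondrial transport, at -0.75 and -1.02. Among 20 other mitophagy genes, 7 were higher and 3 lower in KO and 7 and 4 in WT, with the receptor Fundc1 at 1.57 and 1.64 and the adaptor Tax1bp1 at -0.86 and -1.29. Of 40 other mtDNA genes, 10 were higher and 7 lower in KO and 7 and 6 in WT, with the nuclease Endog at 1.82 and 3.90 and the mitochondrial thymidine kinase Tk2 at -1.30 and -1.90. The other regulators leaned lower, with 2 higher and 9 lower of 18 in each genotype. Atf5, a transcription factor of the mitochondrial stress response, was at 2.91 and 3.17, while Ddit3 was at -2.60 and -1.93 and Ppargc1a, the paralog of Ppargc1b, at -2.45 and -1.86 (all named for a change between stages past the threshold in both genotypes by edgeR's test).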

How the data were processed

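The authors deposited 1 table of raw counts per gene symbol for 10 libraries, made with featureCounts on mm10 per the submitters' processing notes, and no source used here names the aligner, the annotation, any version or the strand setting. Odd values made up 17.7% to 26.9% of the counts between 1 and 20, so single mates were counted at least in part. Genes with a count of at least 10 in enough libraries by edgeR's filterByExpr were kept. Counts were fitted with edgeR 4.0.16 (R 4.3.3, limma 3.58.1) by its quasi-likelihood test with TMM scaling, 1 fit over 4 groups with 6 residual degrees of freedom, and p-values were adjusted by Benjamini-Hochberg over all 21010 genes tested, with 0.05 as threshold. The script was tested on simulated data first. The standard error is the log2 fold change divided by the root of F. Alternatives were DESeq2 1.42.0, other scalings, no filter, only the groups compared, male libraries alone, a replicate block and each library left out.

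The members and lists were chosen with earlier results of these data known. Genes given in full are those past the threshold in KO, the 8 and 4 smallest p in iGCB and naive cells, and up to 4 of the largest changes past the threshold per class between the WT stages. Other genes of the pathways are up to 2 each way per list past the threshold between stages, and the gene nearest it between KO and WT. They are not always those with the largest fold changes. In WT the lowest log2 fold changes between stages were -6.81 among the other mitophagy genes, -4.33 among the mtDNA genes and -2.65 among the fusion and fission genes, in genes not named. Mfn2, Hspd1, Hspe1, Afg3l2, Timm50, Nipsnap1 and other members given beside these were added after their values were seen. Exon lengths, overlaps and pseudogenes come from GENCODE's mouse annotation of GRCm38 (release M21), promoters from RefSeq. All replicate libraries differed by more than sampling noise. RPKM used the union of a gene's exons. One gene of the lists is counted but not reported here by name.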

Additional observations from a re-analysis of the deposited data

How the results depend on the processing

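No result changed direction with a call in place under any alternative run, and no member other than Timm21 was called between KO and WT, or in the difference of the KO effects, by any of them. The 1 member called lower in iGCB KO cells stayed called under each of the 7 alternatives that left out no iGCB library, and the count was 0 to 0 in the 6 fits that left out 1 of them. The 5 members lower in iGCB KO against naive KO cells became 8 with DESeq2, and 2 to 5 when 1 library was left out. The 8 members lower in iGCB WT against naive WT cells became 5 without the filter on low counts and 5 with only the 2 groups compared, and 3 to 7 when 1 library was left out. The counts of higher members stayed within 1.5 times the values given. The labels do not say whether a replicate number pairs iGCB libraries, and the values do not settle it. The deviations of same-numbered iGCB KO and WT libraries from their group means correlated at 0.54, -0.18 and 0.02 over 7379 genes. In naive cells, where a number also goes with sex, they correlated at 0.67. A replicate block called the same counts of members between KO and WT at both stages. Between the stages it left 2 members lower and 19 higher in KO, and 3 lower and 15 higher in WT. With the longest transcript as length, RPKM was 159 for Hspe1 in iGCB WT and 97.1 in naive WT, 66.2 for Bnip3 in iGCB WT and 1.47 in naive WT, and 29.7 for Bnip3l in naive WT, and Hspe1 then ranked first in iGCB WT. Libraries were left out only for comparisons that use them. Leaving out a naive library, or keeping male libraries alone, left 1 library in a naive group. The causes were not tested. With 2 naive libraries per group, the naive KO effect had 95% intervals that reached a median of 0.55 to either side on the log2 scale, which limits what could be called there.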
